A study of Mus musculus with 8 samples.

Results

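Binding of EBF1 and of Brg1 was described at 9 genes of B-cell receptor adaptors and lipid signalling, out of 21900 protein-coding genes placed by RefSeq on GRCm38.p6. The genes are Blnk, Bank1, Dok3, Pik3ap1, Pik3cd, Inpp5d, Plcg2, Prkcb and Vav1. A peak was counted for a gene when its summit lay inside the gene's bounds, or outside every protein-coding gene with this gene's bound as the nearest within 100 kb. By this rule 47 of the 5757 peaks in 4 deposited lists belonged to the 9 genes. Of these, 7 of 312 were EBF1 peaks in DMSO, 0 of 5 EBF1 peaks after dTAG-13, 5 of 234 Brg1 peaks in DMSO and 35 of 5206 Brg1 peaks after dTAG-13.

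The cells were cultured mouse pro-B cells, an early stage of the B lineage, immortalised by transformation with A-MuLV, the Abelson murine leukaemia virus. In all groups an exogenous tagged EBF1 replaced the endogenous protein, and no line with untagged EBF1 was part of the comparison. EBF1, a transcription factor without which B cells do not form, was mapped by ChIP-seq in the EBF1-dTAG_C line, and Brg1, the motor subunit of the BAF complex that remodels chromatin, in the EBF1-dTAG_N line. Each line was treated for 6 h with 0.5 µM dTAG-13, a small molecule that directs a dTAG-bearing protein to degradation, or with DMSO, which the treatment label gives as 6 h and the sample titles as 0 h. There was 1 library per group. No difference between conditions therefore has a replicate check, and no test between conditions was possible. Among marker genes, EBF1 peaks in DMSO were assigned to 6 of 9 B-lineage genes, among them Pax5, Igll1 and Cd79b. They were assigned to 0 of 6 T-lineage, 0 of 5 myeloid and 0 of 4 erythroid genes, against 1.28% of all protein-coding genes. Brg1 peaks in DMSO were assigned to 5 of 9, 0 of 6, 0 of 5 and 0 of 4, against 0.817% of all. After dTAG-13, Brg1 peaks were assigned to 8 of 9, 1 of 6 (Cd3d), 0 of 5 and 0 of 4, against 12.2%. EBF1 peaks after dTAG-13 were assigned to none of these genes, against 0.0228%.

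The 9 genes act just below the B-cell receptor and its precursor, the pre-B receptor of early B cells. Kinases at the receptor phosphorylate adaptors, which carry no enzyme of their own and gather signalling proteins at the membrane. Lipid enzymes then make or remove messengers in the membrane: a kinase produces phosphatidylinositol trisphosphate, a phosphatase removes it, and a phospholipase releases diacylglycerol and a calcium signal that activate protein kinase C. In the same order, Blnk, Bank1, Dok3 and Pik3ap1 are the adaptors, Pik3cd, Inpp5d and Plcg2 the lipid enzymes, Prkcb a protein kinase C and Vav1 an exchange factor for small GTPases.

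Start sites and strands came from the RefSeq promoter table of the same build, and sequence under the peaks was not used here. Sequence is shown for the 3 genes that had a peak in DMSO within 2 kb of a start site lying at the gene's outer bound. Each line gives the 250 bases before the start site, 5′ to 3′ along the gene, with the letters GGAAG (an ETS factor core) in capitals on either strand, so that CTTCC is the same match on the opposite strand.
Pik3ap1, minus strand, chr19:41385103-41385352: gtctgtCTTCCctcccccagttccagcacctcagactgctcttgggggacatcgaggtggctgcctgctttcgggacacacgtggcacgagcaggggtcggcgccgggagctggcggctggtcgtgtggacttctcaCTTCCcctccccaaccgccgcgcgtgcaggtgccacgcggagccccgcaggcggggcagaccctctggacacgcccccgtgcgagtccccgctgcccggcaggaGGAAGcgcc
Blnk, minus strand, chr19:40994222-40994471: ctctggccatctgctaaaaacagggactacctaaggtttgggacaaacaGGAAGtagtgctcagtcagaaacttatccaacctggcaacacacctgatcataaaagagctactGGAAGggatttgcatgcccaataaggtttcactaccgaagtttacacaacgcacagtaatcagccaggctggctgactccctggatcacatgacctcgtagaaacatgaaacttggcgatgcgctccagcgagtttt
Inpp5d, plus strand, chr1:87620062-87620311: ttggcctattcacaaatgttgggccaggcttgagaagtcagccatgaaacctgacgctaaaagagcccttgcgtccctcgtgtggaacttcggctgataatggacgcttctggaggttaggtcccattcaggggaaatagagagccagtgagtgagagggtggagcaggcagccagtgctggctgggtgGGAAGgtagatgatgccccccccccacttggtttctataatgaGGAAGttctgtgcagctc
The first 5 bases of the Pik3ap1 line lie under the edge of an EBF1 peak, which reaches further upstream. No other peak of the 4 lists touched such a window at any of the 9 genes. Neither the EBF1 palindrome (TCCC and GGGA with 2 free bases between) nor its variants (TCCC with GAGA, or TCTC with GGGA, spaced alike) stood in any of the 11 windows of the 9 genes, searched on both strands. Of all 32851 windows in the table, 0.779% held the palindrome and 1.48% a variant. The ETS core stood in 7 of the 11 windows against 64.1% of all windows. The E-box CAGCTG stood in 2 of 11 (Dok3 and Prkcb) against 13%, and no match in the 11 windows shared a base with another. A match in these letters describes the window and is not evidence of binding.

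EBF1 in DMSO was found at 5 of the 9 genes (Bank1, Pik3ap1, Pik3cd, Inpp5d and Plcg2), where 1.28% of all protein-coding genes had an EBF1 peak. Brg1 in DMSO was found at 4 of 9 (Blnk, Bank1, Pik3ap1 and Plcg2), against 0.817% of all genes. After dTAG-13, Brg1 was found at all 9, against 12.2% of all genes, and EBF1 at 0 of 9, against 0.0228%. The genes are long, from 7.12 kb for Dok3 to 345 kb for Prkcb with a median of 100.2 kb, where the median protein-coding gene spans 17.1 kb. Among genes of at least 50 kb, a background chosen after the lengths had been seen, EBF1 in DMSO was found at 5 of 8 against 2.45%, Brg1 in DMSO at 4 of 8 against 1.92%, Brg1 after dTAG-13 at 8 of 8 against 21.3%, and EBF1 after dTAG-13 at 0 of 8 against 0.0202%. Per length, the bodies of the 9 genes held 4.37 EBF1 summits per Mb in DMSO and 23.6 Brg1 summits per Mb after dTAG-13. All protein-coding bodies held 0.146 and 2.65 per Mb. The 9 genes were chosen with results of these data known, so these counts describe them and are not a test.

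**Figure D1:**
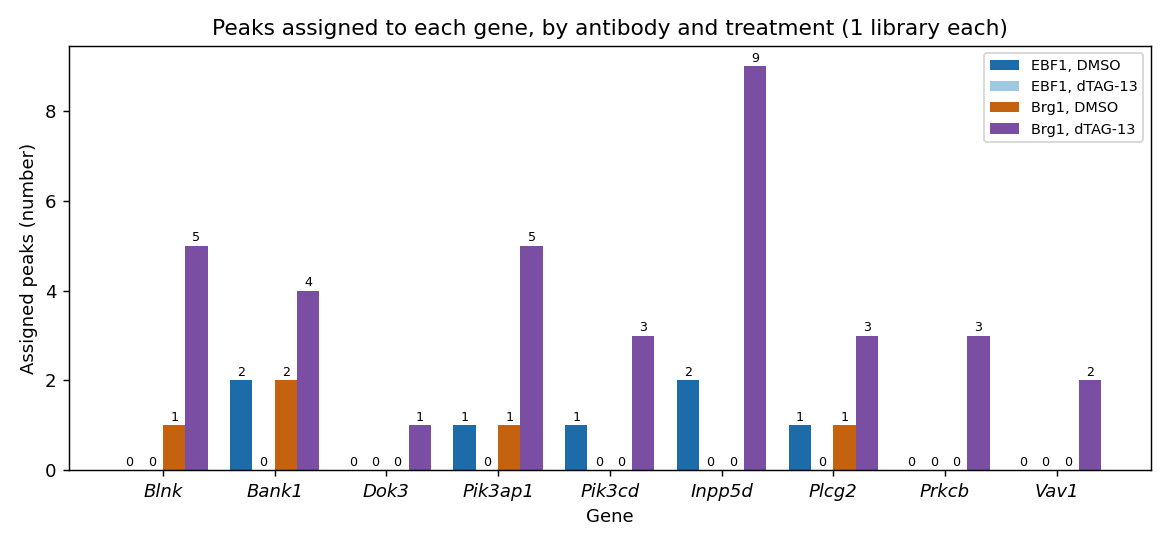
Number of assigned peaks (vertical axis) for each of the 9 genes (horizontal axis), with 1 bar per antibody and treatment and 1 library behind each bar. Inpp5d had the most Brg1 peaks after dTAG-13, with 9, and Bank1 had EBF1 and Brg1 peaks in DMSO, with 2 each, while no gene had an EBF1 peak after dTAG-13.

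Values per peak are the fragments at the summit, recovered from the authors' fold enrichment and p, with exact 95% Poisson intervals that cover counting error only. The Brg1 library after dTAG-13 had 3.54 times the genome-wide background of the DMSO one (2.15 against 0.607 fragments per base). Brg1 peak numbers and fragments are therefore not comparable between conditions without regard to depth. The EBF1 backgrounds were 1.77 in DMSO and 1.65 after dTAG-13, after the scaling-down applied to these libraries in peak calling. Each background is the lowest among the peaks of its list. For EBF1 after dTAG-13 it rests on 5 peaks and can lie above the genome-wide level, so the EBF1 depths are not shown to be alike.

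Among the adaptors, Pik3ap1 (BCAP, which recruits phosphoinositide kinase to the membrane) had EBF1 at its start site. In DMSO the EBF1 peak was at chromosome 19, 41385348 to 41385502, with its summit 342 bp upstream of the start site and 24 fragments (15.4 to 35.7). Brg1 in DMSO stood at nearly the same place, 41385365 to 41385568, with 16 fragments (9.15 to 26.0) and a summit 26 bp from that of EBF1. This was the highest Brg1 peak in DMSO at the 9 genes, rank 50 of 234. After dTAG-13, neither an EBF1 nor a Brg1 peak was listed there. The nearest Brg1 peak, 41390852 to 41391195, was 5530 bp away and held 14 fragments. The remaining 4 Brg1 peaks of the dTAG-13 list lay inside the gene, between 12.5 and 52.6 kb from the start. They stood at 41332378 to 41332695 (19 fragments), 41339113 to 41339452 (24), 41345084 to 41345322 (16) and 41372416 to 41372711 (18). None overlapped an EBF1 site or a Brg1 peak of DMSO, so the listed Brg1 peaks of this gene did not coincide between the conditions. The dTAG-13 peaks come from the deeper library. Rescaled to the DMSO depth, those of Pik3ap1 reached a −log10 p of 2.22 to 4.23, where the lowest Brg1 peak of DMSO had 5.89. Whether Brg1 was at these places in DMSO was therefore not tested.

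Bank1, a scaffold with ankyrin repeats that joins the Src-family kinase Lyn to calcium release, held a pair of EBF1 peaks in DMSO, 23.3 and 25.1 kb inside the gene. The first, at chromosome 3, 136302699 to 136302861, had 27 fragments (17.8 to 39.3). It lay wholly under a Brg1 peak of DMSO at 136302695 to 136302885, which had 10 fragments (4.80 to 18.4) and a summit 41 bp away. The second EBF1 peak, 136300932 to 136301086, had 25 fragments (16.2 to 36.9) and no Brg1 peak over it in either condition. After dTAG-13, Brg1 peaks stood on either side of this second site, at 136300538 to 136300797 and 136301479 to 136301683. Their summits were 381 and 500 bp away, with 15 fragments each (8.40 to 24.7). The first site had no Brg1 peak in that list, the nearest summit being 1207 bp from that of the DMSO peak.

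Away from EBF1, Bank1 had Brg1 in both conditions upstream of its start. The DMSO peak was 136347409 to 136347774, 21.6 kb upstream with 10 fragments, and the dTAG-13 peak 136347059 to 136347742, 21.5 kb upstream with 33 fragments (22.7 to 46.3). They shared 334 bp, with summits 70 bp apart. Within the dTAG-13 list, the highest Brg1 peak of the 9 genes lay 78.5 kb inside Bank1, at 136247219 to 136247904, and no DMSO peak overlapped it. It had 45 fragments (32.8 to 60.2) and ranked 14 of 5206.

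Blnk, the adaptor that brings Plcg2 and the kinase Btk to the receptor, had no EBF1 peak, the nearest EBF1 summit lying 377 kb or more from any of its Brg1 peaks. Brg1 was found upstream of its start in both conditions. The DMSO peak was at chromosome 19, 40995734 to 40995948, 1.62 kb upstream, with 13 fragments (6.92 to 22.2). The dTAG-13 peak, 40995496 to 40996319, covered all 215 bp of it with 31 fragments (21.1 to 44.0) and a summit 131 bp away. The dTAG-13 list held 4 more. Those at 40963055 to 40963334 (27 fragments) and 40970378 to 40970694 (24 fragments) lay inside the gene, and those at 40998768 to 40999135 (23) and 41008387 to 41009235 (16) lay 4.74 and 14.4 kb upstream. The last is 20640 bp from the next gene, Dntt, which encodes the terminal transferase of antigen-receptor joining.

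Dok3, an adaptor that restrains receptor signalling, had a single peak. It was a Brg1 peak of the dTAG-13 list at chromosome 13, 55528097 to 55528457, with its summit 402 bp inside the start site and 18 fragments (10.7 to 28.4). No EBF1 peak of DMSO lay within 1 Mb of it.

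**Figure D2:**
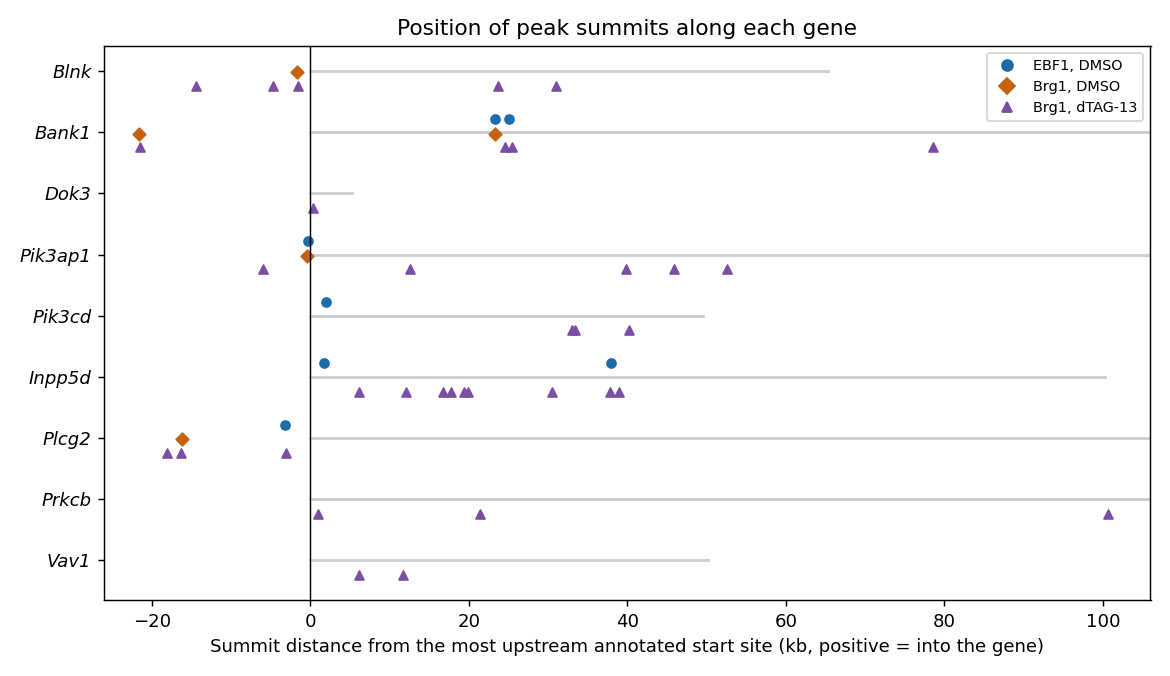
Distance of each peak summit from the most upstream annotated start site of its gene, in kb along the direction of transcription (horizontal axis), for the 9 genes (vertical axis). Points are single peaks and grey lines run from the start site to the end of the gene, or to the edge of the plot. EBF1 and Brg1 of DMSO coincide 342 and 368 bp upstream of Pik3ap1 and 23.3 kb inside Bank1, and the 9 Brg1 peaks of Inpp5d after dTAG-13 lie between 6.18 and 39.0 kb.

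Among the lipid enzymes, Pik3cd (the delta catalytic subunit of phosphoinositide kinase) had the strongest EBF1 peak of the 9 genes. It lay at chromosome 4, 149696684 to 149696859, 1945 bp inside the most upstream start site, with 30 fragments (20.2 to 42.8), and ranked 94 of 312. No Brg1 peak overlapped it in either condition, and the nearest Brg1 summit of the dTAG-13 list was 31106 bp away. The Brg1 peaks of that list lay around the most downstream of the 3 annotated start sites. They stood at 149657797 to 149658572 (18 fragments), 149665107 to 149665471 (22) and 149665582 to 149665818 (18), the latter pair 1989 and 2341 bp upstream of that site. Pik3cd had no Brg1 peak in DMSO.

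Inpp5d (SHIP-1, the phosphatase that acts on phosphatidylinositol trisphosphate) carried a pair of EBF1 peaks in DMSO. One was at chromosome 1, 87621993 to 87622201, 1774 bp inside the start site, with 26 fragments (17.0 to 38.1). The other was at 87658173 to 87658339, 37.9 kb inside, with 17 fragments (9.90 to 27.2). Inpp5d had no Brg1 peak in DMSO, the nearest being 189 kb from these summits, and 9 after dTAG-13, the most of the 9 genes. The highest of these, 87658058 to 87658341 with 27 fragments (17.8 to 39.3), covered the second EBF1 site entirely, with summits 82 bp apart. A neighbouring Brg1 peak at 87658884 to 87659483 (15 fragments) lay 1044 bp beyond that site. The others ran along the first part of the gene, at 87626172 to 87626541 (18 fragments), 87632357 to 87632580 (16), 87636862 to 87637102 (13), 87637850 to 87638360 (22), 87639523 to 87639906 (18), 87640053 to 87640316 (21) and 87650748 to 87650952 (25). All 9 summits stood within 32.8 kb of a body of 100.2 kb, and none overlapped the EBF1 site near the start.

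Plcg2, the phospholipase that produces diacylglycerol and the calcium signal, had no peak inside its body, and all its peaks lay upstream. The EBF1 peak in DMSO, the weakest in rank of the 7 (294 of 312), was at chromosome 8, 117494957 to 117495168, 3.24 kb upstream of the start, with 19 fragments (11.4 to 29.7). No Brg1 peak of DMSO overlapped it, but one of the dTAG-13 list did, at 117495058 to 117495415 with 17 fragments (9.90 to 27.2), sharing 111 bp. Brg1 was present in both conditions further out. The DMSO peak, 117482047 to 117482230 with 9 fragments (4.12 to 17.1), lay under the dTAG-13 peak at 117481678 to 117482530 with 20 fragments (12.2 to 30.9). Another dTAG-13 peak, 117479968 to 117480493 with 15 fragments, was 18046 bp from Plcg2 and 18723 bp from Cmip, so its assignment by distance is close to a tie.

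Prkcb (protein kinase C beta, which diacylglycerol and calcium activate) and Vav1 (an exchange factor for Rac) had Brg1 peaks after dTAG-13 only, and no EBF1. At Prkcb they were at chromosome 7, 122289786 to 122290192 (942 bp inside the start, 13 fragments), 122310289 to 122310615 (21.4 kb inside, 22) and 122389635 to 122390129 (100.7 kb inside, 20). The Vav1 peaks were at chromosome 17, 57284880 to 57285409 (6.14 kb inside, 24 fragments) and 57290587 to 57291118 (11.6 kb inside, 21). The nearest EBF1 summit of DMSO was 4.92 Mb from any Prkcb peak and 811 kb from any Vav1 peak.

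**Figure D3:**
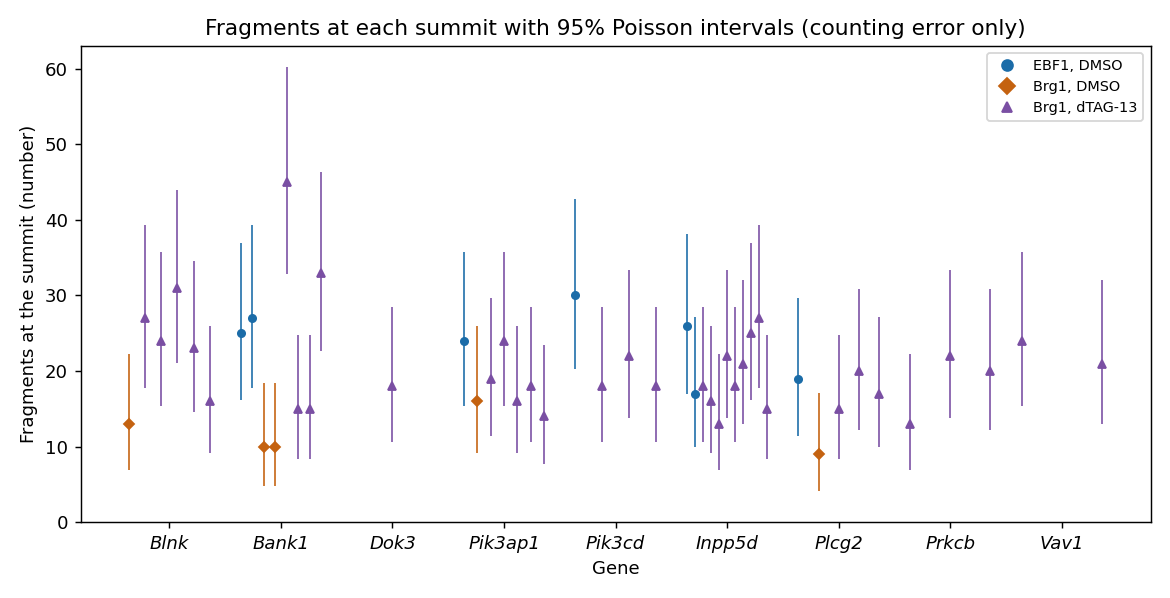
Fragments at the summit (vertical axis) of all 47 peaks, grouped by gene (horizontal axis) and coloured by antibody and treatment; bars are 95% Poisson intervals and the libraries differ in depth. EBF1 summits ran from 17 to 30 fragments, Brg1 summits in DMSO from 9 to 16 and Brg1 summits after dTAG-13 from 13 to 45, the highest in Bank1.

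The first comparison is EBF1 with and without dTAG-13. None of the 7 EBF1 sites was in the dTAG-13 list (0 of 7, exact Clopper-Pearson interval 0 to 41.0%), where 1.6% of all EBF1 sites were. The lowest −log10 p was 5.85 in the DMSO list and 14.2 in the dTAG-13 list. Only the Pik3cd site and the first Bank1 site, 2 of the 7, exceeded the latter value in DMSO, as did 141 of all 312 EBF1 peaks, and whether both lists used 1 cutoff is not stated. In DMSO 5 of the 7 sites stood below their list's median height. The authors' fold enrichment ranged from 4.35 at Plcg2 to 8.08 at Pik3cd with a median of 5.64, where the whole list had 6.68 and reached 26.2. All 5 EBF1 summits inside bodies lay nearer to the start of the gene than to its end, against 52.9% of EBF1 summits inside all genes with an annotated start. These 5 came from 3 genes, so they are not independent of one another.

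The second comparison is Brg1 with and without dTAG-13. Of the 5 Brg1 peaks in DMSO, 3 were found again (60.0%, 14.7 to 94.7%), where 54.3% of all Brg1 peaks were. Those found again were upstream of Blnk, Bank1 and Plcg2, none of them at an EBF1 site. Those not found again, at the Pik3ap1 start and inside Bank1, were the pair that overlapped EBF1, as 18.8% of all Brg1 peaks in DMSO did. How many of all those were found again is not given here. Multiplied by the ratio of backgrounds, the 16 fragments at Pik3ap1 correspond to 56.6 (32.3 to 91.9) at the depth of the dTAG-13 library, and 13 would have reached the lowest −log10 p of that list, 4.31. At Bank1 the 10 fragments correspond to 35.4 (17.0 to 65.0), with 11 needed. The sites found again corresponded to 46.0, 35.4 and 31.8 and were counted at 31, 33 and 20 fragments, in the order Blnk, Bank1 and Plcg2, all within their own intervals. DMSO peaks were listed for passing a threshold, so counts scaled up from them tend to be too high, which the intervals do not cover. Why the peaks at the Pik3ap1 start and inside Bank1 were not listed after dTAG-13 was not tested. EBF1 was not mapped in the line used for Brg1, and 5 peaks are too few to compare the sites with and without EBF1.

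Of the 35 Brg1 peaks after dTAG-13, 3 overlapped a Brg1 peak of DMSO (8.57%, 1.80 to 23.1%), against 2.42% of the whole list. For the rest, depth matters. At the DMSO depth 1 of 35 would have reached 5.89, the lowest −log10 p that DMSO peaks of Brg1 had, against 3.73% of all 5206. For this, rescaled fragments were cut down to a whole number, which lowers the values. This was the peak 78.5 kb inside Bank1, with 12.7 fragments on that scale, fewer than the DMSO peaks at Pik3ap1 (16) and Blnk (13) held. The peak upstream of Blnk came next, at a −log10 p of 5.88, with its 8.77 rescaled fragments cut to the whole number below. Like the peaks upstream of Bank1 (5.59) and Plcg2 (4.38) that overlapped a DMSO peak, it fell short of 5.89 although DMSO listed a peak there. For the 31 peaks that neither reached that value nor overlapped a DMSO peak, among them all of Inpp5d, Pik3cd, Prkcb, Vav1 and Dok3, more Brg1 and a deeper library cannot be told apart. Inside bodies, 24 of the 27 Brg1 summits lay nearer to the start of the gene than to its end, against 68.8% of Brg1 summits inside all genes with an annotated start, and the exceptions were the 3 of Pik3cd. The 27 summits came from 8 genes, 9 of them from Inpp5d, so they are not independent of one another.

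**Figure D4:**
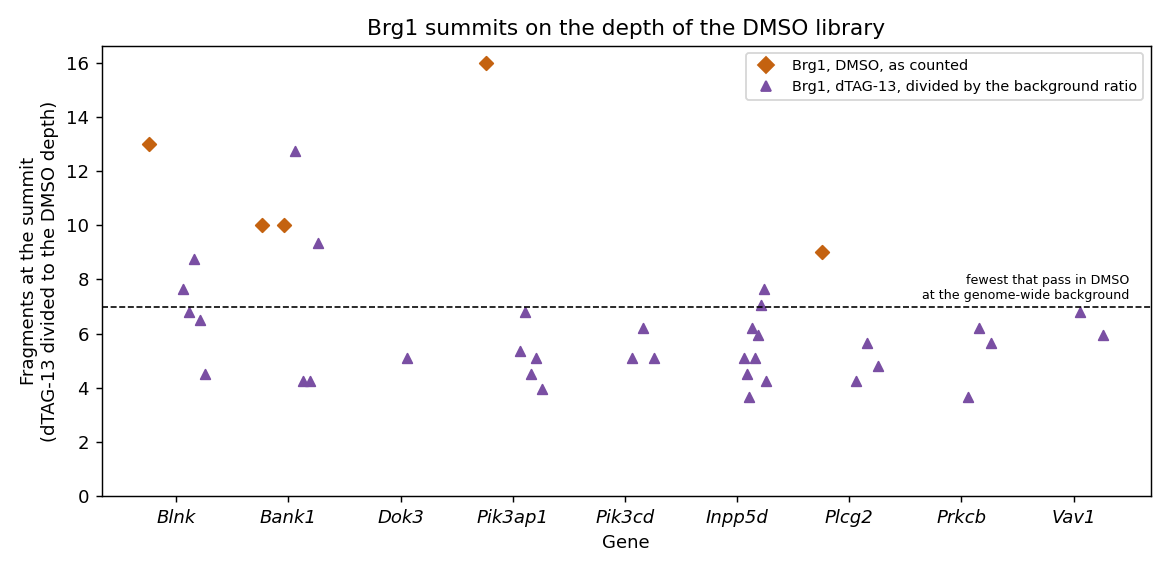
Fragments at Brg1 summits on the depth of the DMSO library (vertical axis), by gene (horizontal axis): diamonds are DMSO peaks as counted and triangles dTAG-13 peaks divided by the background ratio of 3.54. The dashed line marks 7 fragments, the fewest that pass in DMSO at the genome-wide background; peaks with a higher local background need more. The DMSO peaks lie at 9 to 16, and the highest dTAG-13 peak, in Bank1, at 12.7.

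The third comparison sets EBF1 sites against Brg1, across the lines. In DMSO 2 of the 7 EBF1 sites had a Brg1 peak (28.6%, 3.67 to 71.0%), against 14.1% of all EBF1 sites. After dTAG-13 again 2 of 7 had one, against 17.9%, but at other genes: Bank1 and Pik3ap1 in DMSO, Inpp5d and Plcg2 after dTAG-13. No EBF1 site had Brg1 in both conditions, and the sites at Pik3cd, near the start of Inpp5d and the second of Bank1 had Brg1 in neither. The Inpp5d and Plcg2 overlaps rest on Brg1 peaks of 27 and 17 fragments, 7.63 and 4.81 at the DMSO depth. On that scale both stood, by −log10 p, below every peak listed in DMSO, at 5.16 and 2.54. So did the 3 dTAG-13 peaks that overlapped a Brg1 peak of DMSO, at 4.38 to 5.88. A value below that of every DMSO peak therefore does not show that a site would go unlisted in DMSO. From the side of Brg1, 2 of its 35 peaks after dTAG-13 were at EBF1 sites (5.71%, 0.700 to 19.2%), against 1.09% of the whole list.

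Around the 9 genes, a list of 45 other adaptors, lipid kinases, phosphatases, phospholipases, exchange factors and second-messenger genes was examined. EBF1 in DMSO was found at 1 of 45, against 1.28% of all protein-coding genes. This was Nfatc2 (a calcium-regulated transcription factor), with a peak of 22 fragments 37208 bp outside the gene. Brg1 in DMSO was found at 2 of 45, against 0.817% of all genes, among them Rasgrp1 (a Ras exchange factor activated by diacylglycerol). Its DMSO peak had 12 fragments and lay 62667 bp outside the gene, and a dTAG-13 peak of 21 fragments lay over it. After dTAG-13, Brg1 was found at 23 of 45, against 12.2% of all genes. The lengths of the 45 genes were not taken into account here, and of all genes of at least 50 kb 21.3% had such a peak. Among those with the highest peaks were Prkce (28 fragments), Inpp4b (24), Itpkb (23) and Itpr1 (20). They encode enzymes or channels of lipid and calcium signalling, which follows from how the list was chosen and is not a result.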

How the data were processed

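ChIP-seq peak lists of 4 immunoprecipitations were used, and the 4 inputs of the 8 samples have no list here. The submitters' processing notes name Bowtie2 2.3.5.1, MACS2 2.2.7.1, SAMtools 1.10 and deepTools 3.3.2, and GRCm38. Filters and settings are in none of the sources used. Lists were called per library, as peak names in the deposited lists show. The authors' deposited fold enrichment is a linear ratio of summit pileup plus 1 to local background plus 1. Deposited p and q values are on the −log10 scale, and the deposited score is 10 times the −log10 q, cut to a whole number. Another deposited column, of another kind, is the summit's distance from the peak start. These are the authors' values, used inside the list they come from.

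Fold enrichment and p were solved together for fragments and local background, giving whole fragments, within 0.02, for 100% of peaks in every list, with the EBF1 libraries scaled by 0.863 (DMSO) and 0.818 (dTAG-13). The lowest background of a list stands for its library's depth. The lists' median summits held 26, 35, 13 and 18 fragments (EBF1 DMSO, EBF1 dTAG-13, Brg1 DMSO, Brg1 dTAG-13), which limits precision. Code was checked on simulated data. A shared peak means at least 1 bp in common, with Clopper-Pearson intervals, in Python 3.11.15 with scipy 1.17.1. Groups follow the labels' genotype, treatment and antibody. All 9 genes and every peak of them are named, with those of the other 45 genes that had a DMSO peak or were among the 5 highest Brg1 peaks after dTAG-13, except 1 gene that is not reported here. The genes and lists were chosen with earlier results of these data known. Alternatives changed the overlap rule, peak threshold, list length, depth and assignment. Introns and exons were not told apart, and the planned search of sequence at summits was not run, since no genome sequence was used.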

Additional observations from a re-analysis of the deposited data

Results flagged for a closer look

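At the 9 genes the counts of EBF1 and of Brg1 peaks went opposite ways with dTAG-13. The number of EBF1 peaks changed by -7 (from 7 to 0) and that of Brg1 peaks by 30 (from 5 to 35), dTAG-13 minus DMSO. The whole lists went the same ways, from 312 to 5 for EBF1 and from 234 to 5206 for Brg1, so the opposite movement is not particular to these genes. The difference was not tested, since each number rests on 1 library per condition and the antibodies were used in different lines. The Brg1 background differed 3.54 times between the conditions, and its part in the result was looked at only by the rescaling to the DMSO depth, which left 1 of the 35. That rescaling also dropped the 3 peaks that overlapped a Brg1 peak of DMSO, so it does not measure how much of the change goes with depth.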

How the results depend on the processing

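Over the counts of peaks, genes and overlaps at the 9 genes, 67 values under an alternative stayed within 1.5 times and 33 did not. Some of the 67 could not have moved, such as Brg1 counts in DMSO where only the dTAG-13 list was altered. The tally is therefore no measure of robustness. No EBF1 peak appeared after dTAG-13 under any alternative, but this was fixed in advance. The nearest summit of that list of 5 peaks lay 5.82 Mb from the closest peak of the 9 genes. With a reciprocal overlap of 50%, EBF1 sites with Brg1 after dTAG-13 fell to 1 of 7, and Brg1 peaks of DMSO found again to 0 of 5. At a −log10 q of at least 5, Brg1 in DMSO had 2 peaks at 2 genes and after dTAG-13 14 peaks. EBF1 sites with Brg1 were then 1 of 5 in DMSO and 0 of 5 after dTAG-13, and 1 of 2 Brg1 peaks was found again. At 10, EBF1 had 2 peaks at 2 genes, Brg1 0 in DMSO at 0 genes and 7 at 4 genes after dTAG-13, and all overlaps were 0. With a fold enrichment of at least 5, 12 Brg1 peaks were left after dTAG-13 and 1 of 5 EBF1 sites had one. With the dTAG-13 Brg1 list shortened to the DMSO length, 2 peaks at 2 genes remained, 0 EBF1 sites had one and 1 of 5 Brg1 peaks was found again. At the DMSO depth 1 peak at 1 gene was left, with 0 and 0 overlaps. With summits inside bodies alone, EBF1 was at 3 genes, Brg1 in DMSO had 1 peak at 1 gene, 1 EBF1 site had Brg1 in each condition, and 0 of 1 Brg1 peaks was found again. Fewer peaks enter under each of these except the reciprocal rule. There the shared bases fell short of 50% of the wider dTAG-13 Brg1 peak. They were 215 of 824 bp upstream of Blnk, 334 of 684 upstream of Bank1 and 184 of 853 upstream of Plcg2. At the EBF1 site of Plcg2 they were 111 of 358. Bounds within 20 kb, summits within 250 bp and any summit within 100 kb changed none of these counts by over 1.5 times. Leaving out peaks of high background could change nothing, since no peak of the 9 genes was of that kind. No paired analysis was possible because each group has 1 library.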
